A study of Saccharomyces cerevisiae with 17 samples.

Results

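The genes described here are 300 yeast open reading frames (ORFs) whose systematic names end in -A, out of 6692 genes in the count table. Such a suffix was given to ORFs added after the first numbering of the budding yeast genome, and most of them are short. Of 525 names with this suffix, 311 had a summed count of at least 170 over the 17 libraries. From these, 9 ribosomal protein genes, EST3 and COX19 were left out, and no PAU gene was among them. The members nearest to the limit from above were BUD25 with 172 reads, YAL019W-A with 174 and YMR046W-A with 176. Just below it were YLR412C-A and YER006C-A with 162 reads each and YLR149C-A with 160.

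The 300 members fell into 4 classes by the RefSeq annotation of the R64 genome, which is sacCer3. In it, 113 had a standard name, 80 had only a systematic name, and 6 were coding sequences of Ty retrotransposons. The other 101 members were not in that annotation, so no coordinates or roles are given for them, and the removal of ribosomal protein and PAU genes could not be checked for them by name. The 199 annotated members encoded a median of 79 codons, against 398 codons over all 6005 annotated coding genes. The label "small" held for 153 members with at most 100 codons, while 28 had more than 150, with the longest, a Ty sequence, at 1770 codons. An intron was annotated in 22 members.

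Nonsense-mediated mRNA decay (NMD) is the pathway that degrades mRNAs on which translation ends too early. Its central factor is the RNA helicase Upf1, and Nmd4 and Ebs1 are yeast proteins that bind Upf1. Known substrates include unspliced pre-mRNAs that reach the cytoplasm and mRNAs with a short ORF upstream of the main one. Short ORFs encode small proteins with roles in the respiratory chain, protein import, the kinetochore and membranes, and were hard to predict from sequence alone.

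All strains were BY4741, a haploid laboratory strain of mating type a, carried the plasmid pRS415 and were grown in SD-LEU medium to mid-log phase. The groups were wild type, with 5 libraries, upf1delta::KlURA3 (upf1Δ) with 3, nmd4delta::KlURA3 (nmd4Δ) with 6 and ebs1delta::KlURA3 (ebs1Δ) with 3. Each deletion carries the KlURA3 marker and the wild type does not, so in comparisons with wild type the marker and the deletion cannot be told apart. Poly(A) RNA was sequenced in 2 batches, and the second held only wild type and nmd4Δ. Libraries held 19750807 to 59484802 counted reads. NAM7, the table's name for UPF1, had 0.192 to 2.33 CPM in upf1Δ and 174 to 191 CPM in wild type, NMD4 had 0.728 to 1.27 CPM in nmd4Δ and 30.2 to 33.9 in wild type, and EBS1 had at most 0.0371 CPM in ebs1Δ and 125 to 145 in wild type.

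CPM is the read count scaled by the TMM-adjusted library size, so that levels can be compared between libraries. It is a share of each library, so a change in one mRNA and a change in the total mRNA per cell cannot be told apart. In 5 cases a library of the second batch matched 1 library of the first batch in its residuals, with correlations of 0.68 to 0.88, and such libraries were averaged before each mean and SD. Every genotype then has n = 3 sets. In the first batch wild type has only replicates 1 and 2, whose deviations from their mean mirror each other. A positive correlation with 1 of them was therefore fixed in advance, and the unmatched wild type replicate 5 reached 0.43. The labels call the libraries biological replicates, and p-values measure only the spread between them. Each change is given on the log2 scale with its SE, as estimated by edgeR's quasi-likelihood fit with batch as a term, and a member is called at an adjusted p under 0.05 over 6162 tested genes. All 300 members passed the filter on low counts. Because matched libraries enter that test as separate samples, a second model is given in which limma voom treats each matched set as a random block. It appears below as the second fit, and its counts stand beside those of the main test.

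The members covered a wide range of levels. Their median mean level was 4.28 CPM, against 49.7 CPM over all tested genes, and they ranged from 0.324 to 2707 CPM. In all, 155 members had a mean under 5 CPM. Members with a standard name had a median of 32 CPM, annotated members without a name 2.50 CPM and members outside the annotation 1.12 CPM. Per kilobase of coding sequence, the highest levels in wild type were those of CWP2, a major mannoprotein of the cell wall, with 12122 ± 766 CPM per kb (SD, n = 3). PMP1 and PMP2, small proteolipids that associate with the plasma membrane proton ATPase, followed with 3943 ± 385 and 3011 ± 283 CPM per kb, and the ranges of this pair did not meet within 1 SD. NCW1, of no stated function, had 2637 ± 143 CPM per kb and HOR7, a gene induced by hyperosmotic stress, 2603 ± 302, a pair that differed by less than its spread.

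The coding sequences of members that carry the results below are shown to give the scale of these genes. Start and stop codons are in capitals, and the sequences are from the R64 genome. MIN3, a mitochondrial protein of unknown function, has 28 codons, the fewest among the annotated members, as do 4 others. MNC1, a putative membrane protein induced by heavy metals, had the largest rise in upf1Δ among members with a mean of at least 5 CPM. KSH1, an essential protein placed early in the secretory pathway, rose in all 3 deletions.
MIN3 (chrXIII:625811-625897, + strand): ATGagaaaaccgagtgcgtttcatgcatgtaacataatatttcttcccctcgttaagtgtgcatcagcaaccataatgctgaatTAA
MNC1 (chrII:351255-351455, + strand): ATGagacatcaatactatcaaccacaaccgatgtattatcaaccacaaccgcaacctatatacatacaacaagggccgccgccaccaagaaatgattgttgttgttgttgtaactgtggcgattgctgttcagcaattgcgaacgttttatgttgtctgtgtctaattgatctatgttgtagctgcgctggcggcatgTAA
KSH1 (chrXIV:586602-586820, - strand): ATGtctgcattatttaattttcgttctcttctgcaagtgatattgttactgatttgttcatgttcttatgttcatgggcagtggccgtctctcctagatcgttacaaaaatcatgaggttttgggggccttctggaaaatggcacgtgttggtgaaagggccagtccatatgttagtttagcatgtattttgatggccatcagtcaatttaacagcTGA

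PMP1 and PMP2 are the pair of near copies with the highest levels. Over 132 aligned bases, 113 were identical, or 85.6%. Whether reads from one were counted for the other was not tested.
PMP1 (chrIII:162945-163067, - strand): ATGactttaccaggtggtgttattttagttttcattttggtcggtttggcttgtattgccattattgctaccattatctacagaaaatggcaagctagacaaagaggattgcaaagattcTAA
PMP2 (chrV:122798-122929, - strand): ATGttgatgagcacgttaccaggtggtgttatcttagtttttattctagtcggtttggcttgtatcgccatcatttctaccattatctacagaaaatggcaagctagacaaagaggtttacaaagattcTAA

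In upf1Δ, 157 of 300 members were higher than in wild type and 46 were lower, which is 52.3% and 15.3%. Among all 6162 tested genes, 36.4% were called higher and 35.1% lower. A rise of 2-fold or more was called for 102 members, or 34.0%, against 15.4% of all genes, and a fall of 2-fold or more for 4 members, against 0.633% of all genes. The median log2 change of the members was 0.36, against -0.02 over all genes. The second fit called 145 members higher and 40 lower, and shared 144 and 40 of them.

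The classes differed in their counts. Of the 113 members with a standard name, 45 were higher and 35 lower, or 39.8% and 31.0%, with a median change of -0.02. Among all genes these shares were 36.4% and 35.1%. Of the 80 annotated members without a name, 51 were higher and 3 lower, or 63.75% and 3.75%, with a median of 0.98. Of the 101 members outside the annotation, 59 were higher and 8 lower, or 58.4% and 7.92%, with a median of 0.79. Tested ids that are neither members nor annotated coding genes had 154 of 292 higher, or 52.7%, and 12 lower, or 4.11%. Their median was 0.85. Of the 6 Ty sequences 2 were higher, and reads from their near-identical copies cannot be told apart. The plot of changes by class shows that the rise lay mostly outside the standard names.

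**Figure D1:**
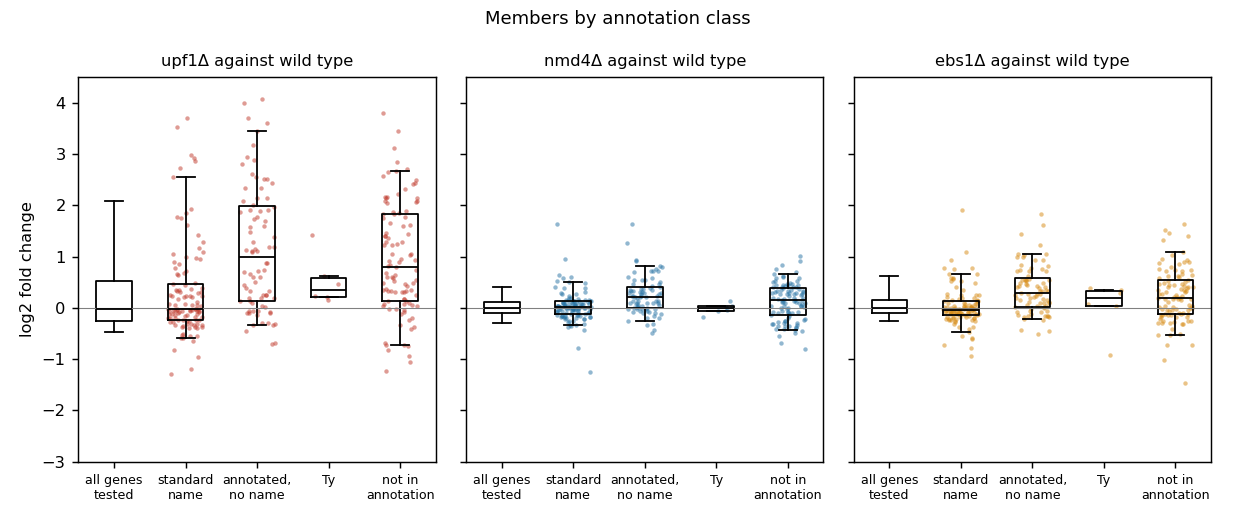
Log2 fold change of each member against wild type in upf1Δ, nmd4Δ and ebs1Δ, by annotation class, beside all genes tested. Points are members, boxes span the quartiles with the median as a line, and whiskers run from the 5th to the 95th percentile; in upf1Δ the medians are -0.02 for standard names, 0.98 for annotated members without a name and 0.79 outside the annotation.

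Level moved with these counts. Below the members' median of 4.28 CPM, 95 of 150 members, or 63.3%, were higher, with a median change of 1.14. Other genes below that level showed 355 of 584 higher, or 60.8%, with a median of 1.12. At or above it, 62 of 150 members, or 41.3%, were higher, against 1730 of 5278 other genes, or 32.8%, with medians of 0.05 and -0.07. The limit on summed reads that defines the members counts the upf1Δ libraries too. An ORF with few reads could therefore become a member through a rise in upf1Δ. The other genes of that level passed a filter on low counts by genotype, which the upf1Δ libraries alone could meet. How much either limit adds to the share of rises at low levels was not tested. Spearman's correlation of the change with mean CPM was -0.42 over 300 members and -0.53 over 6162 genes, a description across genes that share the same libraries and whose level enters both measures. Its correlation with codon number was -0.17 over 193 annotated members and -0.12 over 5769 coding genes. Members of at most 100 codons had 76 of 153 higher, or 49.7%, and longer ones without Ty sequences 20 of 40, or 50%. Other tested genes of at most 100 codons had 34 of 110 higher, or 30.9%, and 42 lower, or 38.2%. Ribosomal protein genes were not left out of those others, and levels were not matched.

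**Figure D2:**
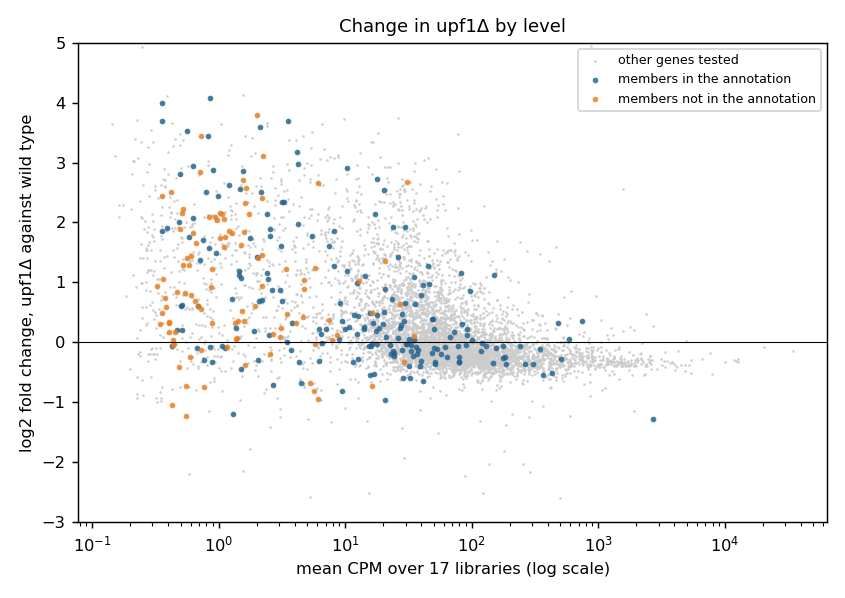
Log2 fold change in upf1Δ against mean CPM over 17 libraries on a log axis, for members in the annotation, members outside it and other genes tested; changes beyond -3 or 5 lie outside the plotted range. Members below 4.28 CPM reach changes of up to 4.07 and sit among the other genes of that level, which had a median of 1.12 against 1.14 for the members.

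MNC1 had the largest rise in upf1Δ among members of at least 5 CPM whose groups did not overlap. Its level was 4.94, 3.99, 4.33, 3.49 and 3.89 CPM in the 5 wild type libraries and 32.1, 31.1 and 35.1 CPM in upf1Δ. The nmd4Δ libraries ran from 5.21 to 6.54 CPM with a median of 5.99, and ebs1Δ had 6.09, 8.10 and 6.46 CPM. Every library of each deletion was above every wild type library. The log2 changes were 2.91 ± 0.115 in upf1Δ (edgeR adjusted p = 3.4e-14), 0.52 ± 0.093 in nmd4Δ (0.00076) and 0.67 ± 0.128 in ebs1Δ (0.00099).

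NBL1, a subunit of the chromosomal passenger complex that acts in chromosome segregation, followed. It had 7.26, 8.14, 8.74, 8.07 and 7.11 CPM in wild type and 49.0, 51.7 and 55.0 CPM in upf1Δ, a rise of 2.73 ± 0.093 (adjusted p = 4.1e-15). In nmd4Δ it ran from 10.6 to 12.9 CPM and in ebs1Δ from 11.8 to 15.1 CPM. These rises of 0.57 ± 0.073 and 0.78 ± 0.1 also came with no overlap between groups.

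SLO1, which binds the Golgi GTPase Arl3, separated the deletions. It had 9.88 to 10.9 CPM in wild type, 57.7, 63.4 and 58.4 CPM in upf1Δ and 13.1, 16.2 and 14.9 CPM in ebs1Δ. In nmd4Δ it ran from 10.7 to 11.8 CPM, which overlaps wild type. The changes were 2.55 ± 0.072 in upf1Δ and 0.53 ± 0.078 in ebs1Δ, both called, and 0.13 ± 0.057 in nmd4Δ, which was not (adjusted p = 0.091). Between nmd4Δ and ebs1Δ themselves, SLO1 differed by -0.40 ± 0.074 (adjusted p = 0.00137).

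BIL1, a Bud6-binding protein in actin cable assembly, rose in all 3 deletions. Wild type held 16.9, 17.6, 15.5, 15.6 and 15.4 CPM, upf1Δ 61.4, 62.6 and 64.7 CPM, and ebs1Δ 27.3, 26.2 and 31.0 CPM. The 6 nmd4Δ libraries lay between 23.9 and 25.6 CPM. No group overlapped wild type, and the changes were 1.92 ± 0.060, 0.61 ± 0.046 and 0.76 ± 0.062 in upf1Δ, nmd4Δ and ebs1Δ.

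Of the other 6 large rises in upf1Δ, the ids YCR045W-A and YBR141W-A, outside the annotation, went from 13.5 ± 1.72 to 94.9 ± 6.73 CPM and from 2.67 ± 0.216 to 17.5 ± 1.22 CPM (SD, n = 3). YOL159C-A, which affects endocytic trafficking when overexpressed, went from 8.91 ± 0.493 to 40.8 ± 0.845 CPM. YIL102C-A, described as a regulatory subunit of dolichyl phosphate mannose synthase, went from 13.8 ± 0.886 to 55.2 ± 2.62 CPM. YNL146C-A, of unknown function, and MIN3 rose by 1.86 ± 0.1 and 1.78 ± 0.131 on the log2 scale. MIN3 had 3.04 to 4.18 CPM in wild type and 12.5 to 14.8 CPM in upf1Δ. Its changes of -0.02 in nmd4Δ and 0.01 in ebs1Δ were not called. Both MIN3 and YBR141W-A passed the limit on mean CPM only through their upf1Δ libraries.

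CWP2 fell most among members of at least 5 CPM. Its level was 3673, 3404, 3516, 3364 and 3167 CPM in wild type, 1460, 1524 and 1404 CPM in upf1Δ and 2121, 2425 and 2521 CPM in ebs1Δ. In nmd4Δ it ran from 2472 to 3389 CPM with a median of 2841, and overlapped wild type. The upf1Δ and ebs1Δ libraries were all below wild type, by -1.29 ± 0.091 (adjusted p = 4.1e-10) and -0.60 ± 0.090 (adjusted p = 0.0001), and the nmd4Δ change was -0.25 ± 0.066 (adjusted p = 0.01). CWP2 also had the highest mean level of any member, 2707 CPM.

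EGO4, a stress-regulated gene of diauxic shift and stationary phase, was lower in all 3 deletions, on a wild type level that varied. Wild type held 17.4, 12.5, 15.9, 9.95 and 9.91 CPM, upf1Δ 8.02, 7.51 and 8.90 CPM, nmd4Δ 6.80 to 8.95 CPM and ebs1Δ 6.35, 10.8 and 7.78 CPM. The ebs1Δ libraries overlapped wild type and the other deletions did not. The changes were -0.81 ± 0.202, -0.78 ± 0.144 and -0.78 ± 0.203, all called. COQ21, a mitochondrial protein with the paralog COQ8, likewise changed by -0.55, -0.42 and -0.54 without overlap, from 19.2 ± 1.11 CPM in wild type to 14.1 ± 2.17, 14.5 ± 0.687 and 14.1 ± 1.29 CPM. Outside the annotation, YOL013W-A had 7.71 ± 0.905 CPM in wild type against 3.74 ± 0.463 CPM in the upf1Δ strain, and YFR052C-A 17.6 ± 3.3 against 10.9 ± 2.65 CPM, and both falls were called. MRA1, which restrains assembly of respiratory complexes, fell by 0.59 on the log2 scale.

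**Figure D3:**
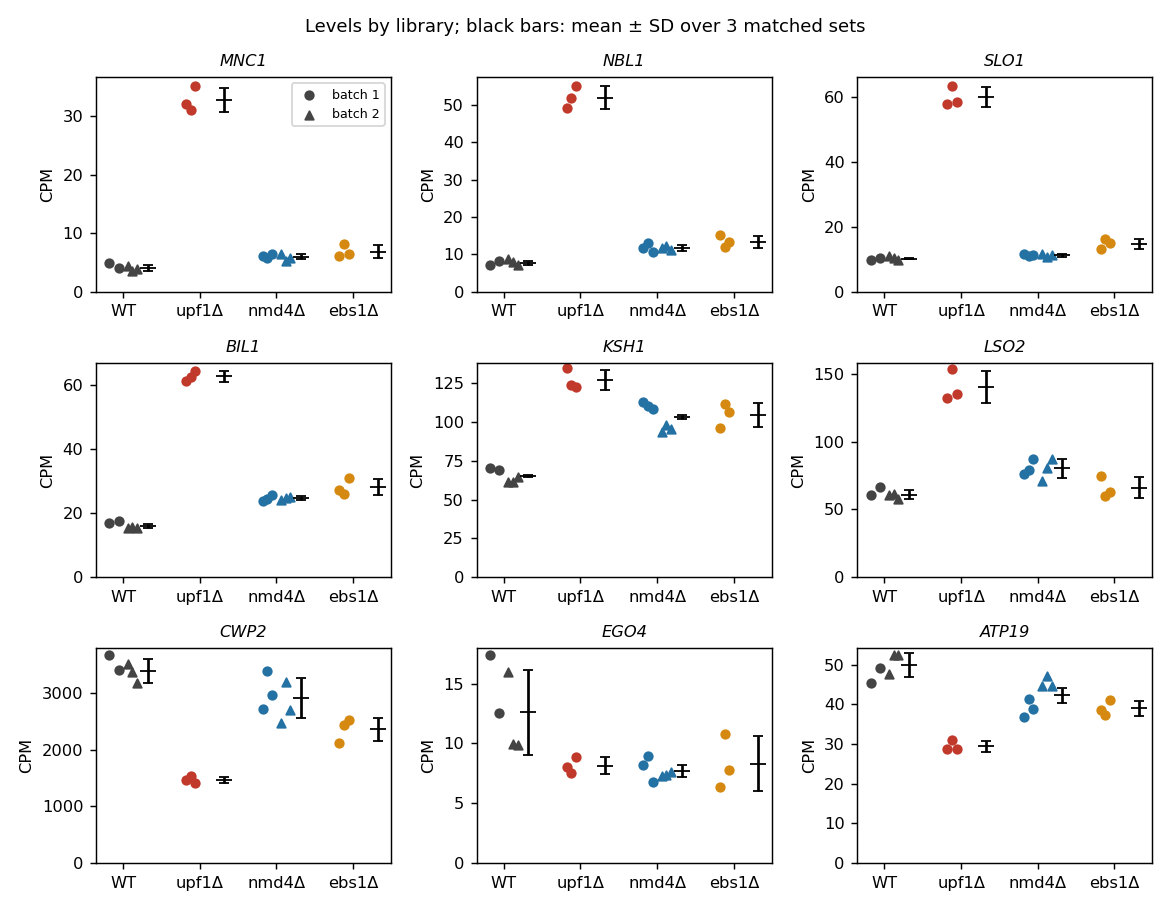
CPM of 9 members in each library by genotype, with circles for the first batch and triangles for the second, and bars for the mean ± SD over 3 matched sets. MNC1, NBL1, SLO1 and BIL1 stand far above wild type in upf1Δ and slightly above it in ebs1Δ; KSH1 is raised in every deletion, and CWP2 falls from 3167 to 3673 CPM in wild type to 1404 to 1524 CPM in upf1Δ.

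By role, 8 of the 19 respiratory and ATP synthase members were higher in upf1Δ and 7 lower, or 42.1% and 36.8%, near the 36.4% and 35.1% of all genes. Their median was -0.05. The lists named here are small, and their counts are read against those shares. SDH6, an assembly factor of succinate dehydrogenase, had 8.71 to 11.6 CPM in wild type and 19.1, 20.5 and 22 CPM in upf1Δ, with no overlap, and rose by 0.99 ± 0.104. MCO10, a small ATP synthase subunit, rose by 0.64 ± 0.069, from 33.8 ± 2.06 to 49.6 ± 3.84 CPM. ATP19, subunit k of the same enzyme, fell by 0.64 on the log2 scale, from 49.8 ± 3.02 to 29.4 ± 1.40 CPM, and ATP18, subunit i/j, by 0.32. QCR10, a subunit of the bc1 complex, fell by 0.59, and COA2, a cytochrome oxidase assembly factor, by 0.52. The lowest change was that of COX26, a cytochrome oxidase subunit, at -1.19 ± 0.337, on only 1.09 to 2.17 CPM in wild type.

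Of the 5 mitochondrial import members, MIM2, which inserts proteins into the outer membrane, was higher and TIM9 and TIM10, chaperones of the intermembrane space, were lower. MIM2 went from 27.6 ± 1.33 to 44.4 ± 3.12 CPM and TIM10 from 164 ± 11.2 to 124 ± 6.13 CPM. The median of the list was -0.10, and with 5 members its counts cannot be set against the shares of all genes.

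Of the 11 membrane, secretory and lipid members, 2 were higher and 5 lower, or 18.2% and 45.5%, against 36.4% and 35.1% of all genes, with a median of -0.08. KSH1 was one of those that rose, and YSY6 the other, at 0.23 ± 0.087, a rise the second fit did not call. Those that fell were EGO4, PMP1, PMP2, TSC3, which activates serine palmitoyltransferase, and VMA9, a subunit of the vacuolar proton pump. PMP1 had 453, 545, 416, 513 and 492 CPM in wild type and 394, 342 and 334 CPM in upf1Δ, and PMP2 fell in step, by 0.54 against 0.51 on the log2 scale. As near copies they may share reads, so they are not taken as independent.

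In the group of kinetochore, DNA repair and meiosis genes, 5 of 9 were higher and DAD4 was lower, or 55.6% and 11.1%, against 36.4% and 35.1% of all genes. HSK3, a subunit of the DASH complex at the kinetochore, went from 33.2 ± 1.94 to 55.1 ± 2.36 CPM, while DAD4 of the same complex went from 36.3 ± 3.22 to 25.6 ± 0.806 CPM. DAD3, also in it, changed by -0.18 ± 0.084, which was not called (adjusted p = 0.057). WIP1, a centromere protein, rose by 0.72 ± 0.076, and MHF1 and MHF2, a histone-fold pair that binds DNA, by 0.36 and 0.30. NBL1 was the fifth.

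For transcription, RNA and translation, 7 of 15 were higher and 3 lower, or 46.7% and 20%, against 36.4% and 35.1% of all genes. KTI11, needed for diphthamide and wobble uridine modification, had 28.8 to 31.8 CPM in wild type, 75, 79.4 and 75 CPM in upf1Δ, 39.6 to 42.8 CPM in nmd4Δ and 44.5, 48.4 and 49.0 CPM in ebs1Δ. No deletion overlapped wild type, and the changes were 1.28 ± 0.050, 0.42 ± 0.038 and 0.59 ± 0.051. YSF3, of the SF3b splicing complex, and SUS1, of the SAGA and TREX-2 complexes, rose in upf1Δ by 0.89 and 0.47. TMA7, LSM3 and NOP10 fell by 0.37, 0.32 and 0.24. Of the 3 stress genes, DDR2 was lower in upf1Δ by -0.96 ± 0.237, with ranges that overlapped, and HOR7 (0.33, adjusted p = 0.084) and HUG1 were not called.

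LSO1 and LSO2 are a divergent pair from the same list. Lso2 is a ribosome-associated protein needed for translation after starvation, and LSO1 is induced by iron deprivation. LSO2 had 60.8, 66.6, 60.9, 61.7 and 57.9 CPM in wild type, 132, 153 and 135 CPM in upf1Δ, 71.3 to 87.4 CPM in nmd4Δ and 75, 60.3 and 62.9 CPM in ebs1Δ. It rose in upf1Δ (1.16 ± 0.084) and in nmd4Δ (0.38 ± 0.064), without overlap in either, and the ebs1Δ change of 0.08 was not called. LSO1 had only 0.0760 to 0.217 CPM in wild type and 0.996 to 1.88 CPM in upf1Δ, so its rise of 3.52 ± 0.484 rests on few reads. The coding sequences agree in 182 of 298 aligned positions, or 61.1%.
LSO1 (chrX:448477-448758, - strand): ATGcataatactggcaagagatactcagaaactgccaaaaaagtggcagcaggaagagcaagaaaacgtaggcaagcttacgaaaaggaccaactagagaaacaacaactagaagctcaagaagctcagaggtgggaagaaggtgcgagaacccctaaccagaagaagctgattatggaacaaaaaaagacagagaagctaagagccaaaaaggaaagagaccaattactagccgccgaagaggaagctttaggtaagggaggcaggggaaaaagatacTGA
LSO2 (chrVII:836387-836665, - strand): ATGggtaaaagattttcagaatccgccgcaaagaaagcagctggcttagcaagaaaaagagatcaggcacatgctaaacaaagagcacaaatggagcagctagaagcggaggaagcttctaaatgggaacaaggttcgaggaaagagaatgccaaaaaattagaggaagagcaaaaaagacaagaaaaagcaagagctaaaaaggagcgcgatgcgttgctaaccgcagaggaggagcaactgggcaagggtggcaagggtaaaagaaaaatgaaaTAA

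Some members have an ATG close upstream of the annotated start codon. If the transcript includes it, it would open a short upstream ORF or, in frame and without a stop, extend the main ORF. Transcript 5′ ends are not given, so whether the transcripts include it was not tested. The trinucleotide ATG was searched on the coding strand in the 60 bases before the start codon. It was present in 35.7% of the 199 annotated members and in 25.2% of all annotated coding genes. The windows below show 30 bases with the upstream ATG in capitals, from members that rose in upf1Δ. In each of these the reading frame it opens stops before the start codon, after 1 codon in YIL102C-A and SDH6, after 3 and 1 codons in BIL1, and after 9 in YSF3.
BIL1, first ATG (chrXV:888768-888797, - strand): taaATGatattgtaaatgtgacttgcatct
BIL1, last ATG (chrXV:888756-888785, - strand): taaATGtgacttgcatcttctgaaggagca
YIL102C-A (chrIX:173612-173641, - strand): aaaATGtgaatagtcaccggttgggcatag
SDH6 (chrIV:1233538-1233567, - strand): ataATGtagcttaaacacacaagaagaaga
YSF3 (chrXIV:365986-366015, + strand): aaaATGgttatattacacaattcgaaacag

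In upf1Δ, 47 of 70 members with such an ATG were higher and 4 lower, with Ty sequences left out, against 49 and 34 of 123 members without one. The median changes were 0.69 and 0.05. All tested coding genes differed alike, with 779 of 1430 higher (54.5%) with an ATG and 1250 of 4339 (28.8%) without, and medians of 0.26 and -0.11. Level moved with it here too: members with an ATG had a median of 4.20 CPM and members without one 23.4 CPM. Among members of at least 20 CPM, 9 of 20 with an ATG were higher and 19 of 67 without. At that level all genes had 522 of 1065 higher (49.0%) with an ATG and 796 of 3621 (22%) without. By the fate of the reading frame, 33 of 52 members were higher where it stopped before the start codon. Where it ran past the start codon out of frame, 20 of 25 were higher. Where it was in frame with no stop before the start codon, 2 of 4 were higher. A member can count under several kinds.

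**Figure D4:**
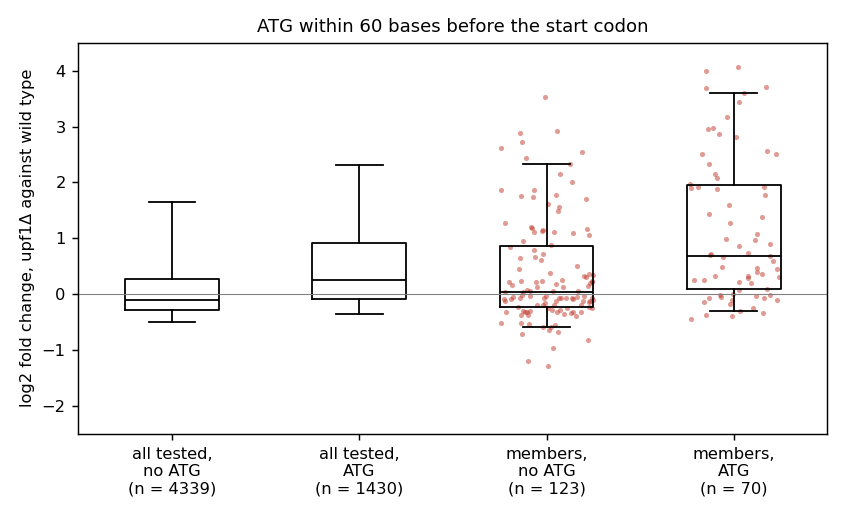
Log2 fold change in upf1Δ for coding genes with and without an ATG in the 60 bases before the start codon, for all genes tested and for annotated members without Ty sequences. Points are members, boxes span the quartiles and whiskers the 5th to 95th percentile; the medians are 0.69 with an ATG and 0.05 without among members, and 0.26 and -0.11 among all genes.

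Single members departed from this split. MNC1, NBL1 and SLO1 had no ATG in that window and rose. TIM10 and CMI8, of unknown function, had such an ATG, CMI8 also in frame, and changed by -0.34, which was called, and by -0.06, which was not.

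The 22 members with an intron hold 25 introns of 49 to 508 bases. In 23 of them the unspliced reading frame meets a stop codon inside the intron. Yeast introns usually start with GTATGT and hold the branch site TACTAAC, which were present in 18 and 20 of the 25. The sequences below, with the first 6 bases, TACTAAC where present and the last 3 bases in capitals, are from NBL1, MEI4 and SUS1, which rose, and QCR10, which fell.
NBL1 (chrVIII:498720-498786, - strand): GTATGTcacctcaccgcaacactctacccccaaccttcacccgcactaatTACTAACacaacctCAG
MEI4 (chrV:239624-239711, - strand): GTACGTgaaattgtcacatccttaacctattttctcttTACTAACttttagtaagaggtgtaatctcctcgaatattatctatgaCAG
SUS1, first intron (chrII:462210-462289, + strand): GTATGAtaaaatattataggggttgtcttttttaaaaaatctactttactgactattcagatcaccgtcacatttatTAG
QCR10 (chrVIII:107832-107894, + strand): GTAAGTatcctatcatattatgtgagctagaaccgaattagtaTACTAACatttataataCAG

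In upf1Δ, 11 of 22 members with an intron were higher and 5 lower, with a median of 0.14, against 80 and 125 of all 266 tested genes with an intron, whose median was -0.12. The 266 include the members, and ribosomal protein genes were left out of the members but not of the 266, so the sets are unlike. The 12 introns of members that were higher held GTATGT in 8 and TACTAAC in 7. The 6 introns of members that were lower held them in 5 and 6, and the 7 of members not called in 5 and 7. MEI4, a meiotic recombination protein, had 4.90 to 5.41 CPM in wild type, 17.1, 16.8 and 15.1 CPM in upf1Δ and 7.17, 8.41 and 6.80 CPM in ebs1Δ. Neither deletion overlapped wild type, and nmd4Δ, at 4.52 to 5.61 CPM, did. Its changes were 1.61 ± 0.095 in upf1Δ, 0.49 ± 0.101 in ebs1Δ and -0.04 ± 0.074 in nmd4Δ, the last not called. SUS1 had 25.3 to 27.8 CPM in wild type and 37.0, 38.8 and 33.9 CPM in upf1Δ. TMA20, a ribosome-associated protein that acts in recycling of the small subunit, changed by -0.06 and was not called, although its intron holds both sequences and a stop. Counts are per gene, so spliced and unspliced reads cannot be told apart.

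Members that overlap another gene carry reads of uncertain origin, since the sources used here do not say whether counting used strand. Of the 9 members that overlap a gene on the other strand, 6 were higher in upf1Δ, or 66.7%, against 36.4% of all genes and 63.3% of members below 4.28 CPM. BUD25, a bud-site selection gene that overlaps HEM14 and FAA2, by 489 bases in the larger overlap, had 0.0248 to 0.228 CPM in wild type and 1.11 to 1.58 CPM in upf1Δ. Its 172 summed reads lay just above the limit of 170, and that sum includes the upf1Δ libraries. Without its rise BUD25 would not have been a member, so its place among the 6 is not independent of the choice of members. Of 13 members with a near copy elsewhere, 7 were higher and 2 lower, or 53.8% and 15.4%, close to the shares of all 300 members.

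The changes in nmd4Δ were smaller, and most calls depended on how matched libraries were treated. In nmd4Δ, 61 of 300 members were higher and 26 lower, or 20.3% and 8.67%, against 13.6% and 14.4% of all genes. The second fit called 17 and 7, the first batch alone 11 and 1, and the second batch alone, added after the data were seen, 30 and 9. Without wild type replicate 2 the lower count was 12, and without wild type replicate 4 it was 14. The median change was 0.08. The 80 annotated members without a name had 24 higher and 3 lower, and those with a standard name 19 and 20. A 2-fold rise was called for 4 members, or 1.33%, and a 2-fold fall for 1, against 0.584% and 0.373% of all genes. All 4 rises lay below 4.28 CPM. They were 2.67% of the members below that level, where 3.42% of the other genes had such a rise. The second fit called 1 of the 4 rises. A difference of the nmd4Δ effect between batches was called for 0 of 294 members by edgeR's interaction test, with 7 at an unadjusted p under 0.05.

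KSH1 had the highest estimated rise in nmd4Δ among members of at least 5 CPM whose groups did not overlap, within 1 SE of the next. It had 70.5, 68.9, 61.2, 61.3 and 64.4 CPM in wild type and 93.6 to 113 CPM in nmd4Δ, with a median of 103.1. In upf1Δ it held 134, 124 and 123 CPM and in ebs1Δ 96.3, 111 and 106 CPM. No deletion overlapped wild type, and the rises were 0.85 ± 0.053 in upf1Δ, 0.64 ± 0.040 in nmd4Δ (adjusted p = 1.9e-09) and 0.57 ± 0.053 in ebs1Δ. The upf1Δ rise exceeded that of nmd4Δ by 0.21 ± 0.050 (adjusted p = 0.00105). KSH1 was lower in the second batch by -0.19 on the log2 scale (adjusted p = 0.0073), and within each batch every nmd4Δ library lay above every wild type library.

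BIL1, YOL159C-A, NBL1 and YBR085C-A, a protein whose abundance increases in DNA replication stress, were the other 4 largest rises, at 0.61, 0.59, 0.57 and 0.54. All 5 were called by the second fit too. YBR085C-A lay between 89.3 and 118 CPM in wild type, between 136 and 165 CPM in nmd4Δ and between 225 and 254 CPM in upf1Δ, with no overlap. Within the same limits, the largest falls were those of EGO4, COQ21, EFG1, a ribosome biogenesis factor, the id YOL013W-A and SPO24, a small protein of sporulation. EFG1 and YOL013W-A, at -0.38 and -0.36, were not called by the second fit. SPO24 lay between 355 and 431 CPM in wild type and between 285 and 336 CPM in nmd4Δ, a change of -0.32 ± 0.076. MBF1, a factor of the integrated stress response, was higher in nmd4Δ by 0.29 ± 0.058 and was not called in upf1Δ (0.05) or ebs1Δ (0.16).

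In ebs1Δ, 57 members were higher than in wild type and 16 lower, or 19.0% and 5.33%, against 14% and 7.38% of all genes. The second fit called 34 and 15, and the first batch alone 30 and 7. Without ebs1Δ replicate 2 the lower count was 8. The median change was 0.08. Annotated members without a name had 24 of 80 higher, and members with a standard name 15 and 14 of 113. A rise of 2-fold or more was called for 10 members, or 3.33%, against 0.876% of all genes, and all 10 lay below 4.28 CPM. They were 6.67% of the members below that level, where 4.97% of the other genes had such a rise. The second fit called 5 of these 10, and the first batch alone 6.

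Among members with a mean of at least 5 CPM whose groups did not overlap, the largest rises in ebs1Δ were those of YBR141W-A (0.85 ± 0.135), YNL146C-A (0.82 ± 0.106), NBL1 (0.78), BIL1 (0.76) and YOL159C-A (0.75). The lack of overlap was part of this choice, and the second fit called them all. YBR141W-A passed the 5 CPM limit only through its upf1Δ libraries. YNL146C-A had 3.99 to 5.00 CPM in wild type and 8.10, 8.37 and 8.42 CPM in ebs1Δ. By the same limits, the largest falls were those of YFR052C-A, CWP2, COQ21, MEO1, of unknown function, and COA6, a cytochrome oxidase assembly factor. YFR052C-A, outside the annotation, had 15.0 to 21.6 CPM in wild type and 14.9, 7.10 and 10.7 CPM in ebs1Δ, and its fall of 0.73 was not called by the second fit. MEO1 had 45.3 to 54.4 CPM in wild type and 40.6, 37.2 and 42.8 CPM in ebs1Δ, a change of -0.38 ± 0.073.

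The deletions were also compared with each other, which leaves out the wild type and keeps the marker the same. Against nmd4Δ, upf1Δ had 151 members higher and 40 lower, where all genes had 36% and 30.9%, and the second fit called 137 and 32. Against ebs1Δ, upf1Δ had 141 higher and 28 lower, where all genes had 33.8% and 27.4%, and the second fit called 127 and 23. Rises of 2-fold or more were called for 82 members against nmd4Δ and 79 against ebs1Δ, where all genes had 13.3% and 11.2%, and falls of that size for 5 members against nmd4Δ, where all genes had 0.308%. MNC1, NBL1, SLO1, YCR045W-A and YBR141W-A led both comparisons. MNC1 was higher in upf1Δ by 2.39 ± 0.105 against nmd4Δ and by 2.25 ± 0.114 against ebs1Δ. CWP2 was lower in upf1Δ than in either, by -1.04 ± 0.086 and -0.69 ± 0.089.

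Between nmd4Δ and ebs1Δ, 21 members were higher in nmd4Δ and 26 lower, or 7% and 8.67%, against 10% and 16% of all genes. The second fit called 17 and 12, and the first batch alone 9 and 12. Without ebs1Δ replicate 2 both counts were 9, and without ebs1Δ replicate 3 the lower count was 13. YKL068W-A, of unknown function, had 28.8, 35.4 and 29.5 CPM in ebs1Δ, above every library of the other groups, which ran from 19.9 to 24.7 CPM. It differed between nmd4Δ and ebs1Δ by -0.41 ± 0.082 (adjusted p = 0.0023). MEI4 and MEO1 differed by -0.53 ± 0.095 and 0.42 ± 0.069. YFR052C-A, DDR2, a multi-stress response gene, QCR10 and CMI8 were the other members with the largest excess in nmd4Δ. YNL162W-A, ADF1 and the Ty sequence YDR170W-A were among those with the largest excess in ebs1Δ.

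Members outside the annotation made up most of the members called between batches. With genotype in the fit, 25 of 300 members were lower in the second batch and 5 higher, or 8.33% and 1.67%, against 2.68% and 0.763% of all genes. Of the 25, 19 were among the 101 members outside the annotation, and 6 among the 199 annotated ones. YGL123C-A had 11.4 and 9.11 CPM in the wild type libraries of the first batch and 0.524, 0.941 and 1.22 CPM in those of the second. The nmd4Δ libraries held 7.09 to 8.04 CPM in the first batch and 0.569 to 1.10 CPM in the second. No library of one batch reached the range of the other, in either genotype.

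Of these 19, 13 had an id of the same number on the other strand in the table, with a median level of 154.9 CPM. For the 81 members outside the annotation with no call between batches, 55 had such an id, with a median of 39.5 CPM. For YGL123C-A this is RPS2, a ribosomal protein gene at 4476 CPM, and the member's level was 0.179% of it in the first batch and 0.0188% in the second. For YMR307C-A it is GAS1, a cell wall glucanosyltransferase gene at 2345 CPM, with 0.338% and 0.0737%. Whether reads of the opposite strand entered these counts was not tested. Without the 19, 54 of 82 members outside the annotation were higher in upf1Δ and 5 lower, with a median of 0.99, and among the 19 these were 5 and 3.

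**Figure D5:**
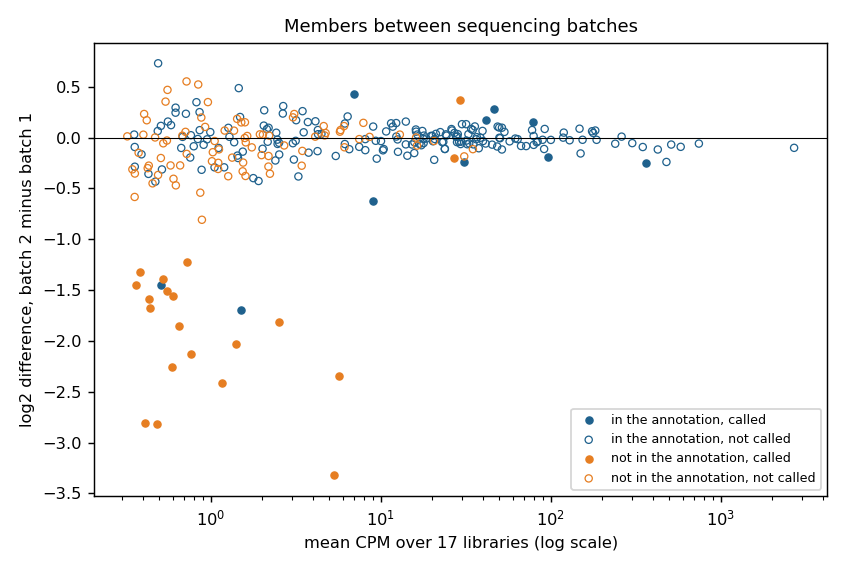
Log2 difference of each member between the second and the first batch, with genotype in the fit, against mean CPM on a log axis. Filled points were called; those far below 0, down to -3.32 for YGL123C-A, are mostly members outside the annotation with levels under 6 CPM, while members above 10 CPM stay near 0.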

How the data were processed

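Poly(A) RNA from 17 yeast libraries was sequenced by the submitters and deposited as a table of raw counts per gene. Per the submitters' processing notes the tools were STAR 2.7.11a and featureCounts of Subread 2.0.5 with the sacCer3 genome. Counting parameters, strand use included, are not stated there. Members and gene lists were chosen with earlier results of these data known.

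From the counts, edgeR 4.0.16 in R 4.3.3 was run with TMM scaling, its filter on low counts by genotype, and robust quasi-likelihood fits with genotype and batch over all 17 libraries (5 coefficients, 12 residual degrees of freedom). P-values were adjusted by Benjamini-Hochberg over 6162 genes, and calls were made at 0.05. The procedure was first tested on simulated counts. Libraries of 1 genotype that matched across batches were found from correlations of residuals across genes that averaged 1000 counts or more. They formed sets for means and SDs and a random block in limma 3.58.1, with a consensus correlation of 0.72. Alternatives were DESeq2 1.42.0, its size factors in edgeR, no filter, no batch term, single batches, only the groups compared and no robust step. Others were matched libraries summed or reduced to 1, a block for the replicate number, and every library left out once. The runs with matched libraries summed or reduced to 1 had no batch term. Runs with only the groups compared kept that term for nmd4Δ against wild type alone. Near copies were searched with BLAST 2.17.0, and sequences, introns and gene descriptions are from the RefSeq annotation of the same build.

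Members were named by rule: called, with a mean of at least 5 CPM and groups that did not overlap, the 10 largest rises and 10 largest falls for upf1Δ and 5 and 5 for the other comparisons, plus all members of the gene lists, all with an intron and the 5 highest levels per kilobase. For the rises and falls, the mean is over all 17 libraries, upf1Δ included, and the lack of overlap is part of the choice. Members given outside this rule, among them YGL123C-A, BUD25 and the ATG examples, were chosen after their values were seen. Depth limits the members below 5 CPM most, and SEs cover the spread between these libraries.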

Additional observations from a re-analysis of the deposited data

Results flagged for a closer look

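Of 194 groups of 5 or 6 libraries of named members, 12 held a library far from the rest. For independent libraries, chance alone gives about 1 in 20. Libraries that match across batches are not independent, so that rate may not hold here. In wild type, YBR141W-A had 3.29 CPM in replicate 2 against 2.39 to 2.62 CPM in the others. YOL159C-A had 10.4 CPM and YIL102C-A 16.2 CPM in replicate 1, against at most 8.81 and 13.8 CPM. In replicate 5, YJR112W-A had 22.9 CPM and SFT1 31.0 CPM, where the others ran from 25.3 to 25.6 and from 26.2 to 27.4 CPM.

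In nmd4Δ, COQ21 had 11.9 CPM in replicate 4 against 14.7 to 15.5 CPM. RCF3 had 15.6 CPM in replicate 1 against 13.9 to 14.4, and MHF2 17.9 CPM in replicate 2 against 19.0 to 19.3. In replicate 3, SDH6 had 9.67 CPM against 10.8 to 11.3 and ATP18 74.7 CPM against 82.7 to 85.1. MIN4 had 1.40 CPM in replicate 5 against 0.929 to 1.09, and VMA10 270.4 CPM in replicate 6 against 252 to 259. The cause was not tested for any of these.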

How the results depend on the processing

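The upf1Δ counts against wild type stayed within 1.5 times under every alternative run, at 144 to 172 members higher and 39 to 50 lower, and so did those of upf1Δ against nmd4Δ and against ebs1Δ. In nmd4Δ the 61 higher and 26 lower became 11 and 1 with the first batch only, 17 and 7 with matched libraries as a block, 23 and 4 with them summed, 20 and 2 with 1 library per set, and 30 and 9 with the second batch only, an alternative chosen after seeing the data. In ebs1Δ the 57 higher became 30 with the first batch only and 34 with the block, and the 16 lower became 7 with the first batch only. For nmd4Δ against ebs1Δ, the 21 higher became 9 with the first batch only and 10 with 1 library per set. Its 26 lower became 12 with the first batch only, 12 with the block, 46 summed and 11 with 1 library per set. Several of these alternatives hold fewer libraries, and otherwise the cause was not tested. Leaving out 1 library at a time gave 12 to 36 lower in nmd4Δ, 8 to 20 lower in ebs1Δ, and 9 to 27 higher and 9 to 32 lower for nmd4Δ against ebs1Δ.

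YMR307C-A changed sign. In upf1Δ its -0.82 became 0.15 without a batch term, 0.13 with only the groups compared and 0.46 with matched libraries summed. In ebs1Δ its -0.26 became 1.02 summed. None of these alternative runs had a batch term. Its wild type libraries had 10.5 and 10.7 CPM in the first batch and 1.23 to 2.46 CPM in the second. The cause was not tested.

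The replicate numbers were not taken to pair the samples over the whole design: same-numbered libraries of different genotypes had residual correlations from -0.41 to 0.51, and 8 of 20 pairs exceeded 0.1. With the replicate number as a block, 151 members were higher and 50 lower in upf1Δ, 50 and 39 in nmd4Δ, and 48 and 19 in ebs1Δ. All 3 same-numbered pairs of upf1Δ and nmd4Δ in the first batch exceeded 0.1 (0.158, 0.1002 and 0.190), and with the block upf1Δ had 153 members higher and 35 lower than nmd4Δ, against 151 and 40 without it. Of the 97 named members in upf1Δ, 5 lost their call with matched libraries as a block and 10 with the first batch only, against 19 and 31 in nmd4Δ. Members below 5 CPM are those where depth limits the estimates.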
